A study of Mus musculus with 18 samples.

Results

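The genes described are 9 members of the gp130 cytokine family in cultured mouse cortical astrocytes, 5 cytokines and 4 receptors, of 22078 genes in the tables. The cytokines are Lif (Entrez identifier 16878), Clcf1 (56708), Cntf (12803), Il6 (16193) and Il11 (16156), and the receptors are Il6st (16195), Lifr (16880), Osmr (18414) and Cntfr (12804). They were chosen by name as cytokine and receptor genes of the family, with earlier results of these data known. They were found in both count tables by matching Entrez identifiers to mouse symbols. All 9 were present and all 9 passed the filter on low counts at 90 min, and 8 of 9 passed it at 3 days, where Il6 was too low to test.

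Cytokines of this family signal through receptors that share the subunit gp130, the product of Il6st. IL-6 and IL-11 bring gp130 together through their own binding receptors, LIF pairs gp130 with the LIF receptor, oncostatin M uses the OSM receptor, and CNTF and CLCF1 need the CNTF receptor alpha chain besides gp130 and the LIF receptor. The assembled receptors activate JAK kinases and the transcription factor STAT3, and SOCS3 shuts the signal off. In the brain the pathway is known for driving astrocyte differentiation and the reactive state that astrocytes enter after injury.

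The study asked how astrocytes respond when a designer receptor (DREADD, an engineered muscarinic receptor that responds to a synthetic ligand) is switched on. RNA sequencing of polyadenylated RNA was done on 18 libraries in 6 groups of 3. At 90 min the groups carried hM3Dq, a receptor coupled to Gq, rM3Ds, coupled to Gs, hM4Di, coupled to Gi, or the fluorescent protein EGFP as control, all with 8 µM deschloroclozapine (DCZ, the ligand) for 90 min. At 3 days the groups carried hM3Dq or the fluorescent protein mCherry, with the same 90 min of DCZ followed by 3 days in medium without ligand. All cells were transfected with plasmid 7 days before stimulation and grown with fetal bovine serum. The controls received DCZ too, so any effect of the ligand alone is shared by all groups. The promoter of the plasmids, the share of cells that took them up and the age of the animals are not given in the sources used here, and nothing says that the 3 libraries of a group came from separate cultures, so p-values measure the spread between these libraries.

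The depth of a library was between 16.1 and 25.2 M estimated counts in the 12 libraries at 90 min and between 16.6 and 19.7 M in the 6 at 3 days. Levels are given as CPM, the counts of a gene relative to the library total after TMM scaling within each time, so levels at 90 min and 3 days are on separate scales. Of 10 astrocyte markers none was at or under 3 counts in a whole group, and their summed level was 498 to 1040 CPM at 90 min and 726 to 862 CPM at 3 days, although Gfap stayed between 1.68 and 23.2 CPM. The microglia markers Cx3cr1, P2ry12 and C1qb had at most 3 counts in any library. Fibroblast and mural markers summed to 1970 to 3550 CPM at 90 min and 2440 to 3160 CPM at 3 days, neuron markers to 99.8 to 216 CPM and 119 to 170 CPM, and oligodendrocyte lineage markers to 100 to 120 CPM and 90.9 to 116 CPM. At 90 min the libraries rM3Ds 2, rM3Ds 3 and EGFP 1 stood apart on the first principal component (52.5% of the variance), with scores of 53.3, 54.9 and 65.5 against 8.63 for hM4Di 1 and between -25.5 and -17.5 for the other 8. At 3 days mCherry 3 stood apart, with a score of 49 on a first component holding 56.7% of the variance. Where a member's value rests on these libraries it is given with and without them.

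Within a group, levels were compared between genes per kilobase of exon. In hM3Dq cells at 90 min Clcf1 was at 51.3 CPM per kb, Il6st at 45.6, Cntf at 43.1, Osmr at 5.55, Lif at 5.01, Cntfr at 0.909, Il11 at 0.907, Lifr at 0.737 and Il6 at 0.495. In EGFP cells the order began with Il6st at 44.1 CPM per kb, Cntf at 34.9 and Clcf1 at 14.5, followed by Osmr at 4.55 and Lif at 1.58, with Cntfr at 1.17, Il11 at 1.00, Lifr at 0.759 and Il6 at 0.0821. By group means Clcf1 thus came after Il6st in EGFP cells. It came first in hM3Dq cells, where it lay in the same range as Il6st and Cntf. Cntf, at 7.43 to 53.4 CPM within EGFP cells, and Osmr, at 15.3 to 75.2 CPM, spread too widely there to be placed against their neighbours. The 3 genes of lowest level in EGFP cells besides Il6 were the cytokine Il11 and the receptors Cntfr and Lifr, close together in every group at 90 min. The shared subunit gene Il6st was thus among the most abundant members per length, and Lifr and Cntfr, whose products pair with it, were among the least abundant.

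**Figure D1:**
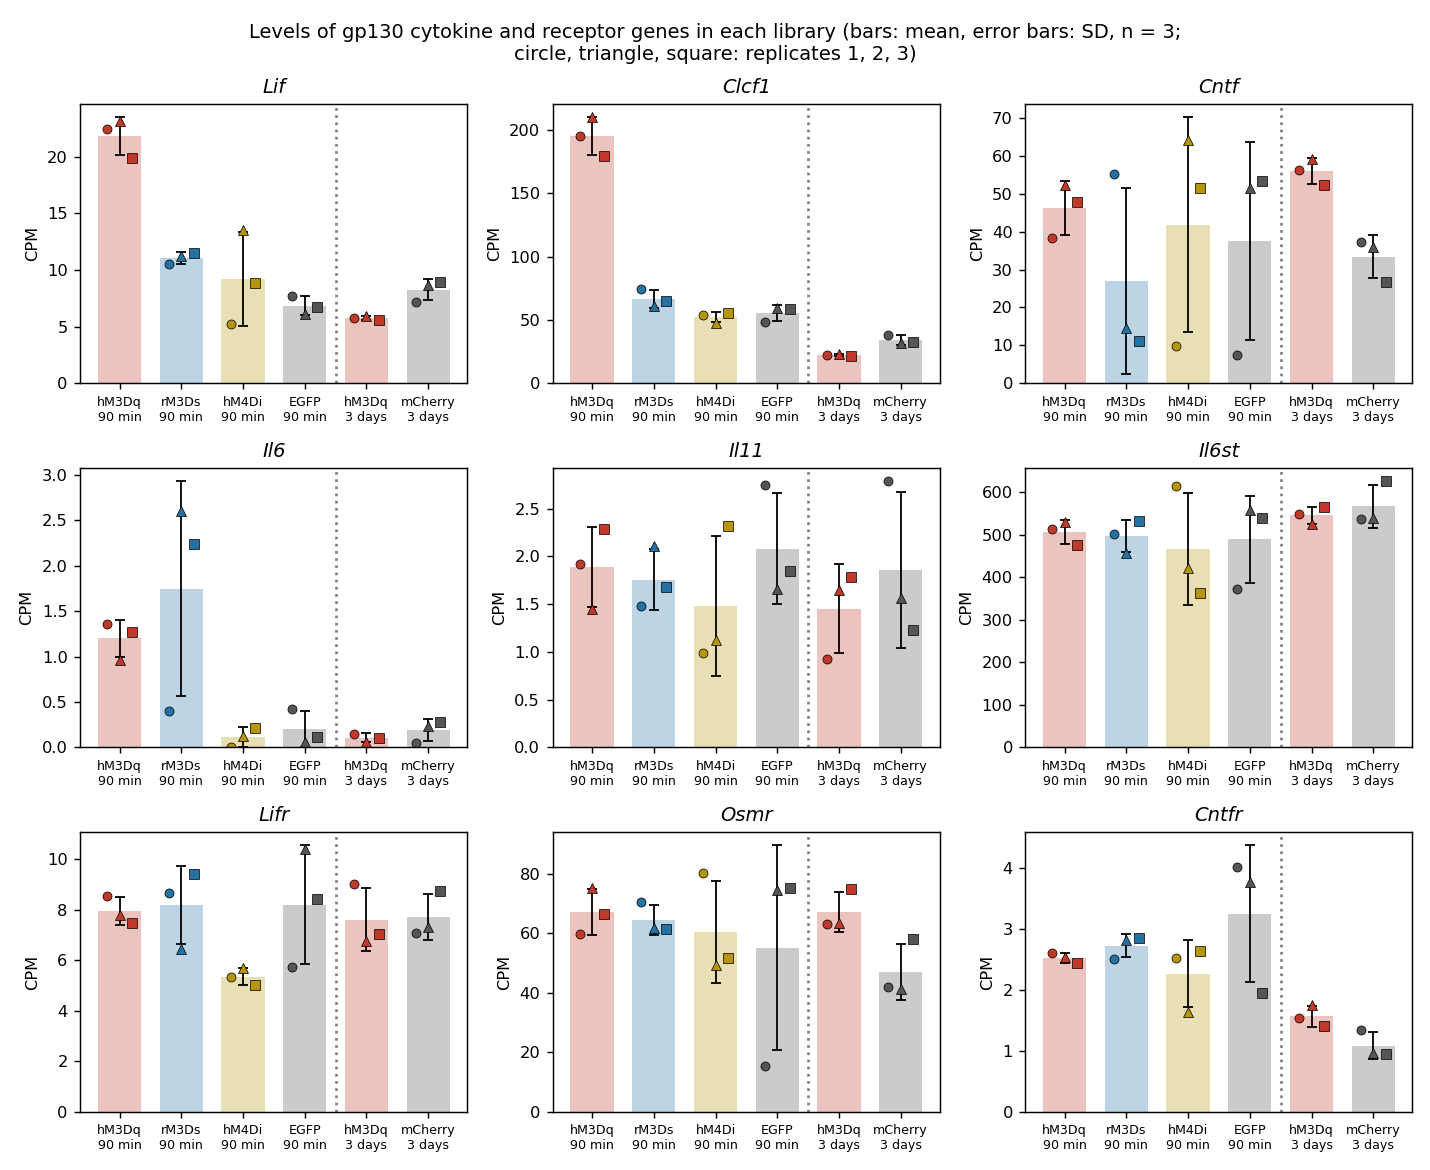
Level of each of the 9 genes in CPM (vertical axis, linear from 0, with its own range for each gene) in the 6 groups. Bars are means of 3 libraries, error bars SD, and circles, triangles and squares replicates 1, 2 and 3. Lif and Clcf1 were highest in all 3 hM3Dq libraries at 90 min, and Cntf was low in EGFP 1, rM3Ds 2, rM3Ds 3 and hM4Di 1.

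Clcf1 and Lif rose in hM3Dq cells at 90 min, and the receptors did not pass the test. Clcf1 encodes cardiotrophin-like cytokine factor 1, a ligand of the CNTF receptor. It had 195, 210 and 180 CPM in hM3Dq cells, against 48.1, 59.0 and 58.7 CPM in EGFP cells. Every hM3Dq library lay above every EGFP library, with means of 195 ± 15.2 and 55.3 ± 6.21 CPM (SD, n = 3 each). The log2 fold change was 1.82 ± 0.12 (SE), a 3.53-fold higher level, with a 95% interval of 1.57 to 2.07 and an adjusted p of 1.8e-05 in edgeR's quasi-likelihood test.

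Lif encodes leukaemia inhibitory factor. Its level was 22.4, 23.1 and 19.9 CPM in hM3Dq cells, against 7.71, 6.12 and 6.74 CPM in EGFP cells. Again the groups did not overlap, with means of 21.8 ± 1.69 and 6.86 ± 0.80 CPM (SD, n = 3 each). Its log2 fold change was 1.67 ± 0.27 (SE), a 3.18-fold higher level, with an interval of 1.08 to 2.26 and an adjusted p of 0.0151 in edgeR. The adjusted p of Lif lay above 0.05 when hM3Dq 1 (0.0677), hM3Dq 2 (0.0707), EGFP 2 (0.0837) or EGFP 3 (0.0698) was left out, while its fold change stayed between 1.60 and 1.76 on the log2 scale.

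Il6 encodes interleukin 6. It had 22, 16 and 25 counts in hM3Dq cells, against 9, 1 and 2 counts in EGFP cells, which is 1.36, 0.968 and 1.27 CPM against 0.426, 0.0572 and 0.115 CPM. The hM3Dq libraries all lay above the EGFP libraries, but 2 EGFP libraries were at or under the floor of 3 counts (0.142 to 0.173 CPM in this group). Its log2 fold change of 2.49 ± 0.86 (SE) did not pass in edgeR (adjusted p = 0.427). It was 3.70 without EGFP 1 (adjusted p = 0.264), the EGFP library with 9 counts, and 3.69 without the 3 libraries that stood apart (0.11).

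The remaining cytokines gave no call. Cntf, ciliary neurotrophic factor, had 38.4, 52.3 and 48.0 CPM in hM3Dq cells, against 7.43, 51.7 and 53.4 CPM in EGFP cells, and the low library EGFP 1 set the spread of its group. Its log2 fold change was 0.31 ± 0.81 (SE, adjusted p = 0.982 in edgeR), and -0.20 without the 3 libraries that stood apart. Il11, interleukin 11, had 1.92, 1.45 and 2.29 CPM in hM3Dq cells, against 2.74, 1.66 and 1.84 CPM in EGFP cells, with overlapping groups and a log2 fold change of -0.14 ± 0.37 (SE, adjusted p = 0.982 in edgeR).

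Among the receptors, Il6st had 513, 529 and 475 CPM in hM3Dq cells, against 372, 557 and 539 CPM in EGFP cells. Its groups overlapped and its log2 fold change was 0.05, with an interval of -0.38 to 0.48, so a change as large as that of Clcf1 or Lif lay outside it. Osmr, the oncostatin M receptor, had 59.9, 75.3 and 66.6 CPM in hM3Dq cells, against 15.3, 74.7 and 75.2 CPM in EGFP cells. As with Cntf, only EGFP 1 was low, and the log2 fold change of 0.29 ± 0.45 (SE, adjusted p = 0.963 in edgeR) was -0.17 without the libraries that stood apart. Lifr, the LIF receptor, had 8.55, 7.80 and 7.48 CPM in hM3Dq cells, against 5.72, 10.4 and 8.41 CPM in EGFP cells, a log2 fold change of -0.04 with an interval of -0.52 to 0.44. Cntfr, the CNTF receptor alpha chain, had 2.60, 2.54 and 2.44 CPM in hM3Dq cells, against 4.02, 3.78 and 1.96 CPM in EGFP cells, a log2 fold change of -0.36 with an interval of -1.0 to 0.27 (adjusted p = 0.866 in edgeR).

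In this comparison 2 of 9 members were called, both higher, where 0.788% of the 13584 genes tested were called and 0.758% were called higher. The members were chosen with earlier results of these data known, so the count beside this share is a description. Lif and Clcf1 were both also called without the libraries that stood apart, with log2 fold changes of 1.75 for Lif and 1.72 for Clcf1, where 1.03% of genes were called. With the replicate number as a block both were called as well, when 66 genes were called in place of 107. Groups did not overlap for 3 members, all higher, a pattern seen for 8.26% of genes. The median log2 fold change was 0.29 over the 9 members and 0 over all genes, but without the libraries that stood apart it was -0.12 over the members, 4 of 9 positive, and -0.01 over all genes. Endothelial markers summed to 44.6 to 46.4 CPM in hM3Dq cells, against 19.3 to 35.2 CPM in EGFP cells. Of these, Flt1, a VEGF receptor gene, was at 21.5, 22.7 and 18 CPM in hM3Dq cells, against 9.89, 7.67 and 6.57 CPM in EGFP cells. Tek was at 19.9, 18.45 and 22.3 CPM in hM3Dq cells, against 5.16, 23.2 and 22.2 CPM in EGFP cells. Vwf was at 3.10, 4.11 and 4.63 CPM in hM3Dq cells, against 2.84, 3.66 and 3.17 CPM in EGFP cells. Pecam1, Cldn5, Cdh5, Kdr and Emcn each stayed under 1 CPM. Cell cycle genes (12 genes) summed to 132, 97.5 and 118 CPM in hM3Dq cells, against 543, 104 and 93.3 CPM in EGFP cells. In EGFP 1, EGFP 2 and EGFP 3 Lif was at 7.71, 6.12 and 6.74 CPM and Clcf1 at 48.1, 59.0 and 58.7 CPM. Without EGFP 1 the log2 fold changes were 1.76 for Lif and 1.73 for Clcf1. Whether the difference in cell cycle genes bears on either gene was not tested. In bulk RNA a change in the number of cells that express a gene and a change in its RNA per cell cannot be told apart.

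**Figure D2:**
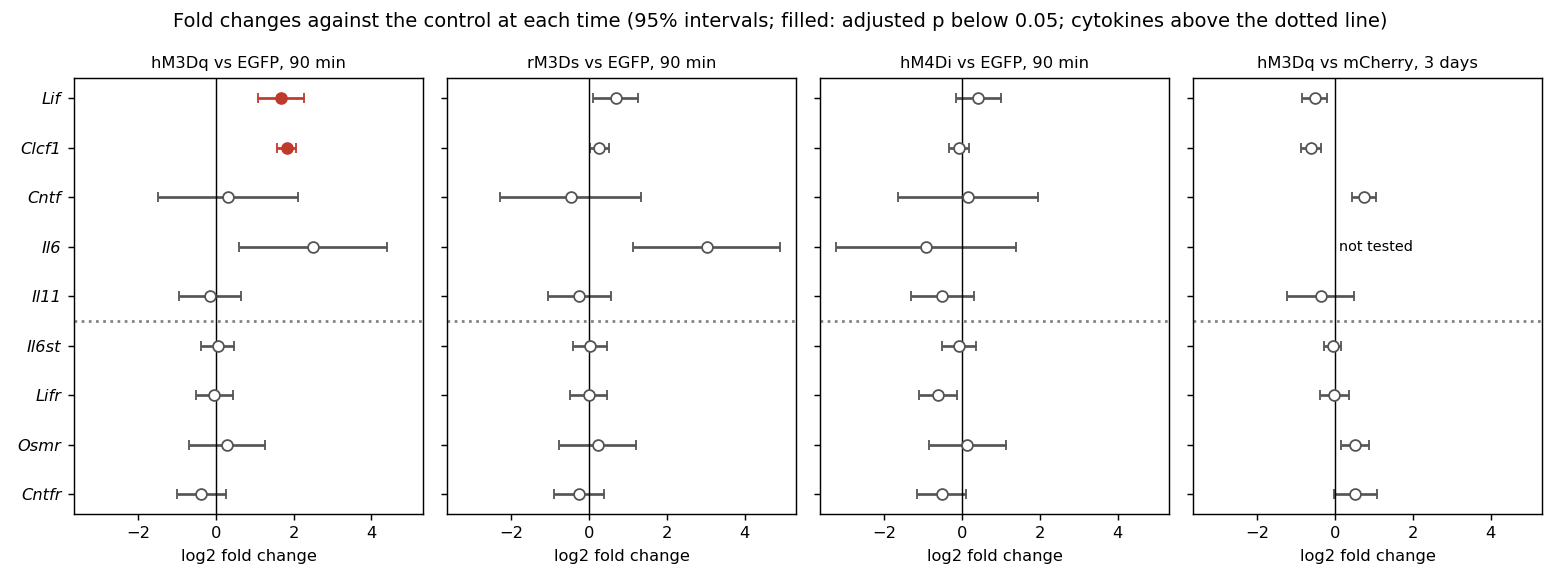
Log2 fold change of each gene (horizontal axis) against the control at each time, as hM3Dq, rM3Ds and hM4Di against EGFP at 90 min and hM3Dq against mCherry at 3 days. Points are edgeR estimates, bars 95% intervals, and filled points have an adjusted p below 0.05, which applied to Lif and Clcf1 in hM3Dq cells at 90 min.

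The Gs-coupled and Gi-coupled receptors were set against the same EGFP libraries, so the 3 comparisons at 90 min share their controls. In rM3Ds cells 0 of 9 members were called in edgeR, where 2 of 13584 genes (0.0147%) were called, 575 genes (4.23%) had an unadjusted p below 0.05, and DESeq2 called 55 genes, none of them a member. Lif had 10.5, 11.2 and 11.5 CPM in rM3Ds cells, against 7.71, 6.12 and 6.74 CPM in EGFP cells. These groups did not overlap, as for 3.9% of genes in that direction, and the log2 fold change was 0.69 ± 0.27 (SE, adjusted p = 1 in edgeR, unadjusted p = 0.025). Clcf1 had 74.5, 61.0 and 64.7 CPM in rM3Ds cells, against 48.1, 59.0 and 58.7 CPM in EGFP cells, also without overlap, with a log2 fold change of 0.27 ± 0.11 (SE, adjusted p = 1 in edgeR). Neither difference passed the adjustment over all genes.

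Il6 in rM3Ds cells had 7, 47 and 36 counts, against 9, 1 and 2 counts in EGFP cells. The 2 high values came from rM3Ds 2 and rM3Ds 3, which stood apart from the other libraries, and rM3Ds 1 lay within the range of the EGFP libraries. The log2 fold change was 3.03 ± 0.86 (SE, adjusted p = 0.633 in edgeR), and 2.12 when EGFP 1 and these libraries were left out, which leaves 1 rM3Ds library. Cntf was low in the same libraries, with 55.3, 14.7 and 11.1 CPM in rM3Ds cells, against 7.43, 51.7 and 53.4 CPM in EGFP cells. Its level was thus low in rM3Ds 2, rM3Ds 3 and EGFP 1, the libraries with 332, 336 and 543 CPM of cell cycle genes, whereas rM3Ds 1, EGFP 2 and EGFP 3 had 97.2, 104 and 93.3 CPM. Whether these differences between libraries shaped the Cntf and Il6 values was not tested. Osmr did not go with the cell cycle genes in the same way, with 70.4, 61.8 and 61.3 CPM in rM3Ds cells and one low library, EGFP 1, among the EGFP cells.

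**Figure D3:**
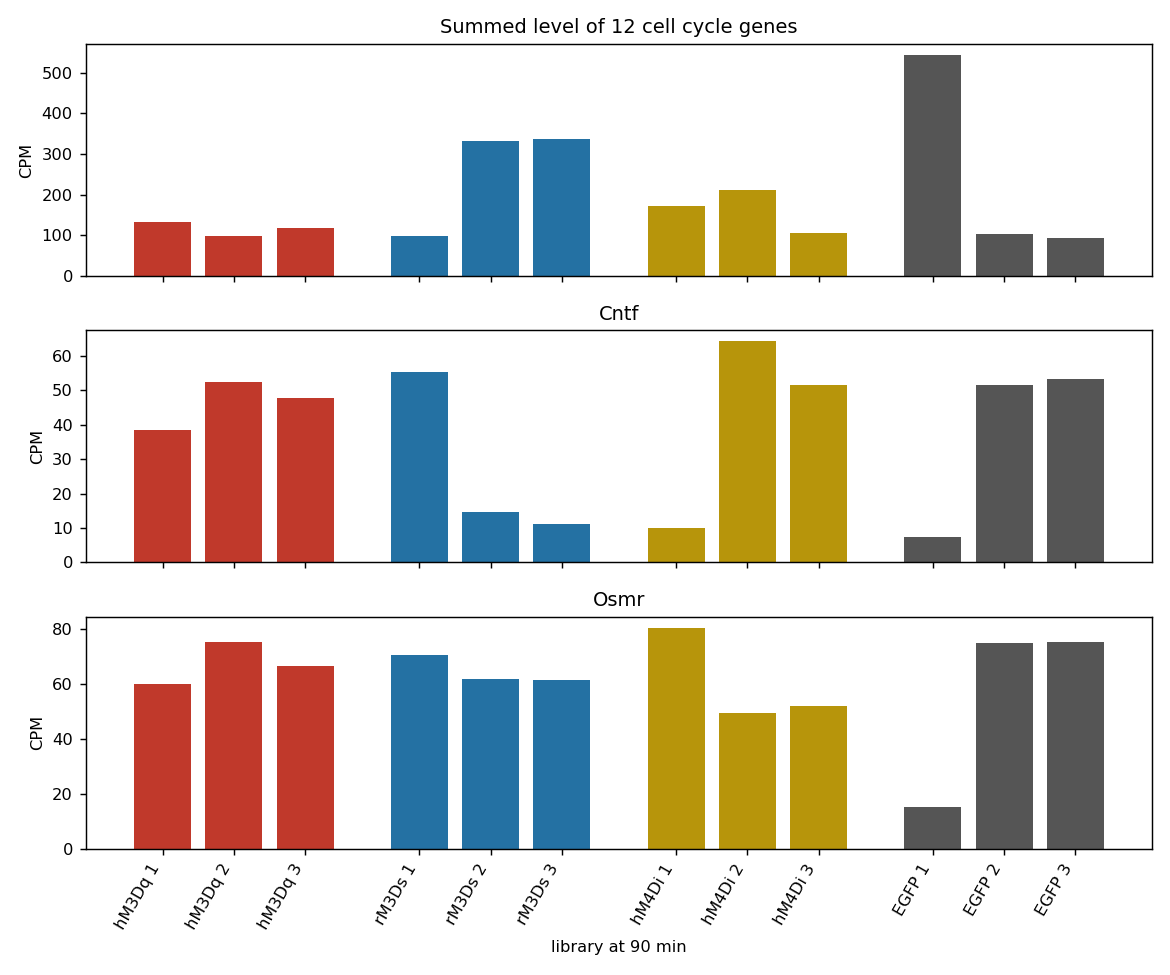
Summed CPM of 12 cell cycle genes (top), Cntf (middle) and Osmr (bottom) in each of the 12 libraries at 90 min, as bars from 0 without error bars, since each bar is 1 library. EGFP 1, rM3Ds 2 and rM3Ds 3 had the highest cell cycle sums and low Cntf, hM4Di 1 had low Cntf with a cell cycle sum of 172 CPM, hM4Di 2 had 64.2 CPM of Cntf with a sum of 211 CPM, and Osmr was low in EGFP 1.

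In hM4Di cells 0 of 9 members were called against EGFP in edgeR, where 0% of genes were called, 745 genes (5.48%) had an unadjusted p below 0.05, and DESeq2 called 28 genes. Lif had 5.18, 13.5 and 8.86 CPM in hM4Di cells, against 7.71, 6.12 and 6.74 CPM in EGFP cells, and the hM4Di libraries lay on both sides of the EGFP libraries. Clcf1 had 54.0, 47.9 and 55.6 CPM in hM4Di cells, against 48.1, 59.0 and 58.7 CPM in EGFP cells, a log2 fold change of -0.07 with an interval of -0.32 to 0.17. The receptor Lifr was the 1 member whose groups did not overlap, with 5.34, 5.67 and 5.01 CPM in hM4Di cells, against 5.72, 10.4 and 8.41 CPM in EGFP cells. Such separation downwards was seen for 4.47% of genes, and the gap to EGFP 1 was small. The log2 fold change of -0.61 ± 0.22 (SE) did not pass in edgeR (adjusted p = 0.833). Over all alternatives, those leaving out libraries among them, it lay between -0.831 and -0.382. Every hM3Dq library also lay above every hM4Di library for Lifr, as for 11.3% of genes, without a call (adjusted p = 0.334 in edgeR). The same held for rM3Ds against hM4Di cells, as for 5.84% of genes (adjusted p = 0.386 in edgeR). Cntf had 9.89, 64.2 and 51.5 CPM in hM4Di cells, where cell cycle genes summed to 172, 211 and 106 CPM. The low Cntf value was that of hM4Di 1, and hM4Di 2, with the highest cell cycle sum of its group, had the highest Cntf. Il6 had 0, 3 and 4 counts in hM4Di cells, at or near the floor of 3 counts.

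Set directly against each other, the receptors differed in Clcf1. Clcf1 was 2.92-fold higher in hM3Dq cells than in rM3Ds cells, at 195 ± 15.2 against 66.7 ± 7.01 CPM (SD, n = 3 each), with a log2 fold change of 1.55 ± 0.11 (SE) and an adjusted p of 0.000123 in edgeR. It was 3.72-fold higher in hM3Dq cells than in hM4Di cells, where it averaged 52.5 ± 4.06 CPM, with a log2 fold change of 1.89 ± 0.12 (SE) and an adjusted p of 1.59e-05 in edgeR. In each of these comparisons Clcf1 was the 1 member called, where 0.67% and 0.802% of genes were called. Lif was 21.8 ± 1.69 CPM in hM3Dq cells, against 11.1 ± 0.525 CPM in rM3Ds cells, without overlap, as for 11.4% of genes in that direction, and the log2 fold change of 0.98 ± 0.26 (SE) did not pass in edgeR (adjusted p = 0.141). Against hM4Di cells, at 9.18 ± 4.17 CPM, Lif did not overlap either, as for 11.3% of genes, and its log2 fold change was 1.25 ± 0.26 (SE, adjusted p = 0.061 in edgeR). This call depended on the setting, since leaving out hM4Di 1 (adjusted p = 0.0392) or hM4Di 2 (0.0156) brought it under 0.05, and DESeq2 called Lif in both comparisons. Without the libraries that stood apart, Lif (adjusted p = 0.0486) and Il6 (0.0328) were called with Clcf1 against hM4Di cells, where 2.16% of genes were called, and Clcf1 was called against rM3Ds cells, then 1 library (1.39, adjusted p = 0.014), where 0.18% were. Between rM3Ds and hM4Di cells no member was called in edgeR, where 2 genes (0.0147%) were called, 1355 genes (9.97%) had an unadjusted p below 0.05, and DESeq2 called 205 genes including Il6. Il6 had the highest log2 fold change there, 3.95 ± 0.92 (SE, adjusted p = 0.214 in edgeR), and was called without rM3Ds 1 (0.0176). Its high libraries there, rM3Ds 2 and rM3Ds 3, are among those that stood apart, and without all that stood apart the value was 1.86 (adjusted p = 1).

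At 3 days after stimulation no gene was called between hM3Dq and mCherry cells in edgeR (0% of 12807 genes), 1540 genes (12%) had an unadjusted p below 0.05, and DESeq2 called 156 genes. Clcf1 had 22.2, 23.1 and 21.4 CPM in hM3Dq cells, against 38.2, 31.5 and 32.2 CPM in mCherry cells. Lif had 5.79, 5.93 and 5.58 CPM in hM3Dq cells, against 7.18, 8.63 and 8.97 CPM in mCherry cells. Both cytokines thus lay below the control in all 3 libraries, the opposite side from 90 min. The log2 fold changes were -0.61 ± 0.11 for Clcf1 (SE, adjusted p = 0.205 in edgeR) and -0.52 ± 0.14 for Lif (adjusted p = 0.263).

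Other members lay above the control at 3 days. Cntf had 56.4, 59.1 and 52.3 CPM in hM3Dq cells, against 37.4, 36.0 and 26.9 CPM in mCherry cells, a log2 fold change of 0.74 ± 0.14 (SE, adjusted p = 0.214 in edgeR). Osmr had 63.0, 63.4 and 75.0 CPM in hM3Dq cells, against 42.0, 41.3 and 58.0 CPM in mCherry cells, a log2 fold change of 0.51 ± 0.15 (SE, adjusted p = 0.289 in edgeR). Cntfr had 1.54, 1.76 and 1.41 CPM in hM3Dq cells, against 1.34, 0.959 and 0.953 CPM in mCherry cells, a log2 fold change of 0.52 ± 0.24 (SE, adjusted p = 0.429 in edgeR). Groups did not overlap for these 3 genes and for Clcf1 and Lif, 5 of 9 members, where 25.1% of genes did not overlap in either direction.

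The absence of calls at 3 days depended on mCherry 3. Without that library, when 9.72% of genes were called, Clcf1 (log2 fold change -0.65, adjusted p = 0.000705 in edgeR), Cntf (0.61, 0.000249) and Osmr (0.69, 0.000236) were called, and DESeq2 on all 6 libraries called Clcf1 (0.00297) and Cntf (0.00152). The remaining receptors gave values close to the control. Il6st had 548, 525 and 564 CPM in hM3Dq cells, against 537, 539 and 626 CPM in mCherry cells, with a log2 interval of -0.28 to 0.17. Lifr had 9.01, 6.75 and 7.05 CPM in hM3Dq cells, against 7.07, 7.32 and 8.74 CPM in mCherry cells, with a log2 interval of -0.40 to 0.36. Il11 had 0.922, 1.64 and 1.79 CPM in hM3Dq cells, against 2.79, 1.56 and 1.23 CPM in mCherry cells, and Il6 had 3, 1 and 2 counts against 1, 4 and 5 counts. Both genes overlapped between the groups.

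The difference between the times was itself tested, as the hM3Dq effect against mCherry at 3 days minus the hM3Dq effect against EGFP at 90 min. It was -2.43 ± 0.16 on the log2 scale for Clcf1 (SE, adjusted p = 3.55e-05 in edgeR) and -2.18 ± 0.20 for Lif (adjusted p = 0.000182). These 2 of 9 members were called, both lower, where 0.396% of 13391 genes were called and 0.381% were called lower. This count, too, is a description, given how the members were chosen. Il6 had a difference of -3.24 ± 1.00 (SE, adjusted p = 0.298 in edgeR) and the receptors had differences of -0.10 for Il6st, 0.03 for Lifr, 0.23 for Osmr and 0.90 for Cntfr, none of them called. Without EGFP 1, Cntf (0.93, adjusted p = 0.0387) and Il6 (-4.45, adjusted p = 0.0461) were called as well, when 170 genes were called, and without all 4 libraries that stood apart Cntf (0.80, adjusted p = 0.0058) and Osmr (0.85, adjusted p = 0.00201) were, when 3.72% of genes were called. The control protein also differed between the times, EGFP at 90 min and mCherry at 3 days, so the control plasmid and the time cannot be told apart.

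Genes near Lif and Clcf1 in pattern were named by the root mean square difference of log2 CPM, each gene centred on its mean over the 12 libraries at 90 min, which is a description of these libraries. Nearest to Clcf1 were Fos (0.186), Nr4a1 (0.234), Ankrd28 (0.271), Junb (0.292) and Bmp2 (0.301), where the median distance over all genes was 0.81. Fos and Junb encode subunits of the transcription factor AP-1, and Nr4a1 encodes an orphan nuclear receptor, all known as genes induced early after stimulation. Nearest to Lif were Cd300lb (0.246), Tcim (0.295), Cavin4 (0.298), Ifrd1 (0.319) and Myc (0.32), where the median distance was 0.72. Clcf1 stood 34th from Lif, and Lif 42nd from Clcf1, at a distance of 0.43, and the other 7 members lay far down both orders, Lifr the nearest of them to either.

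Of the 10 nearest genes 7 were called higher in hM3Dq than in EGFP cells in edgeR, a count given as a description, since the genes were picked for their likeness over the same libraries. Fos had a log2 fold change of 2.01 ± 0.16 (SE, adjusted p = 6.18e-05 in edgeR), Nr4a1 of 1.99 ± 0.15 (6.09e-05), Junb of 1.29 ± 0.10 (5.18e-05), Myc of 1.36 ± 0.14 (0.000564) and Ifrd1 of 1.12 ± 0.09 (0.000107). Tcim (adjusted p = 0.00807) and Ankrd28 (0.00321) were called too, and Cd300lb (0.0691), Cavin4 (0.204) and Bmp2 (0.153) were not. The plot of centred levels shows where both cytokines part from each other. In hM4Di cells Lif ranged widely, between 5.18 and 13.5 CPM, and Cd300lb and Cavin4 followed it there, whereas Clcf1 was nearly level.

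**Figure D4:**
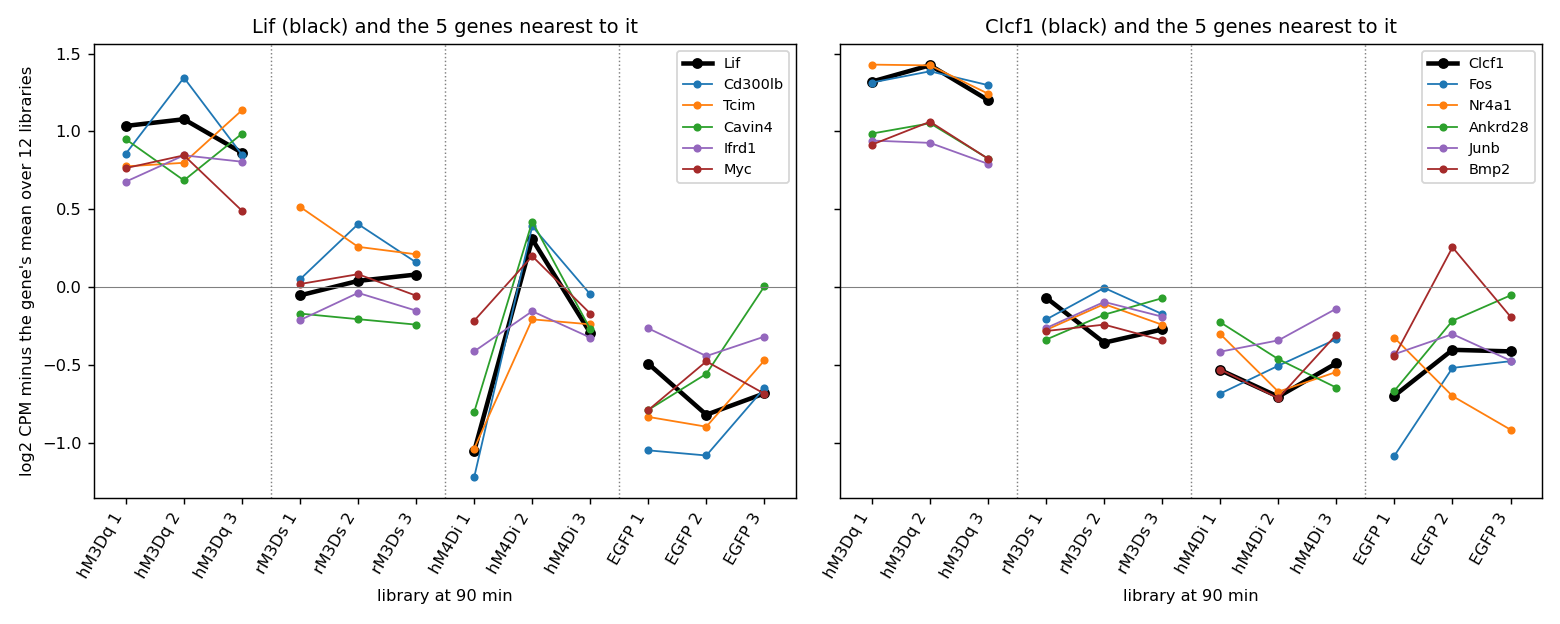
Log2 CPM minus the mean of each gene over the 12 libraries at 90 min (vertical axis) for Lif (left, black) and Clcf1 (right, black) with the 5 genes nearest to each (coloured), by library. Each point is 1 library. The hM3Dq libraries were highest for all genes shown, and Lif was uneven among the hM4Di libraries (5.18, 13.5 and 8.86 CPM).

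Because Fos and Junb, whose products form AP-1, were among the nearest genes, the 250 bases before the RefSeq start sites of the members were read for the AP-1 motif TGANTCA, which reads the same on both strands. The cAMP response element TGACGTCA, its core TGACG on either strand and the STAT motif TTCNNNGAA, also the same on both strands, were read as well. Of 32851 promoter windows of that length 6.75% held the AP-1 motif, 1.55% the full cAMP response element, 17.8% the core and 7.02% the STAT motif. The windows of 8 members were found, from RefSeq on GRCm38.p6, and Clcf1 was not among them. The windows of Lif (chr11:4257318-4257567, plus strand), Il6 (chr5:30012864-30013113, plus strand) and Il11 (chr7:4778142-4778391, minus strand) are shown, from among those that hold the AP-1 motif. At 90 min Lif was called between hM3Dq and EGFP cells. Il6 lay on the same side without overlap but was not called, and Il11 overlapped between the groups. Capitals mark the AP-1 motif and, in the middle of Il6, the core of the cAMP response element on the opposite strand.
Lif: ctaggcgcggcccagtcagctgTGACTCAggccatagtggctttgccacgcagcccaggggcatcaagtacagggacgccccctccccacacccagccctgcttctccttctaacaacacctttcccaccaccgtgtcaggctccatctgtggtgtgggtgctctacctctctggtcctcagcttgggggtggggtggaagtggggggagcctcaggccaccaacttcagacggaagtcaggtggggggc
Il6: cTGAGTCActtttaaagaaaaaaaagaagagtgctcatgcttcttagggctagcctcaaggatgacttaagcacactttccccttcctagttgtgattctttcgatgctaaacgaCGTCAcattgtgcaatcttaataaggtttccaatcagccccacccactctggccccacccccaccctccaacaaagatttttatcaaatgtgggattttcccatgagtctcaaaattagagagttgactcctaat
Il11: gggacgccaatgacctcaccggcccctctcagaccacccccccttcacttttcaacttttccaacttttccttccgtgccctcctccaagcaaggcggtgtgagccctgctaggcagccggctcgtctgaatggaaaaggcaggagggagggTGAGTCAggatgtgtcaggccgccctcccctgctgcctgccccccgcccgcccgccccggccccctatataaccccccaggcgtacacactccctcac
The AP-1 match began at base -228 from the start site in Lif, -249 in Il6 and -98 in Il11, and the core in Il6 began at -135. Cntf held the AP-1 motif at -245. The windows of Il6st, Lifr, Osmr and Cntfr, and the second window of Il11, held none of these letters. Lif, with the motif, rose in hM3Dq cells, Il11 with the same motif had a log2 interval of -0.95 to 0.66, and Il6, with 22, 16 and 25 counts in hM3Dq cells against 9, 1 and 2 counts in EGFP cells, was not called. A match describes letters in a window and nothing about binding.

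The other genes of the pathway were read as 4 lists. Of 11 other ligands and receptors of the family 6 could be tested at 90 min and none was called between hM3Dq and EGFP cells in edgeR, with a median log2 fold change of 0.50 against 0 for all genes. Without the libraries that stood apart the median was 0.15 over the 7 then tested. Il6ra, the binding receptor of interleukin 6, had 55.2, 49.8 and 37.4 CPM in hM3Dq cells, against 19.6, 33.0 and 28.9 CPM in EGFP cells, without overlap, with a log2 fold change of 0.81 ± 0.21 (SE, adjusted p = 0.161 in edgeR). Osm, the ligand of the OSM receptor, stayed under 1 CPM in both groups.

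Of the 11 genes of the JAK-STAT relay none was called in that comparison (median log2 fold change -0.03, and -0.01 without the libraries that stood apart), and the smallest p was that of Stat5a, at 41.0 ± 4.99 CPM in hM3Dq cells and 51.0 ± 1.72 CPM in EGFP cells (SD, n = 3 each, adjusted p = 0.252 in edgeR). Stat3 itself had 343, 358 and 315 CPM in hM3Dq cells, against 205, 316 and 302 CPM in EGFP cells, which overlapped. Of 13 inhibitors none was called (median 0.22, and 0.13 without the libraries that stood apart), and the nearest to the threshold was Socs6, with 60.1, 54.9 and 58.7 CPM in hM3Dq cells, against 39.7, 45.0 and 46.8 CPM in EGFP cells (log2 fold change 0.40 ± 0.08 SE, adjusted p = 0.0536 in edgeR). Socs5 had 611, 648 and 581 CPM in hM3Dq cells, against 255, 384 and 388 CPM in EGFP cells (adjusted p = 0.262 in edgeR), and it was called without the libraries that stood apart. Socs3, the feedback inhibitor of gp130, had 28.6, 25.3 and 24.6 CPM in hM3Dq cells, against 15.8, 23.3 and 24.1 CPM in EGFP cells, with a log2 fold change of 0.31 ± 0.23 (SE, adjusted p = 0.833 in edgeR).

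Of 18 genes listed as STAT3 targets 1 was called higher at 90 min, Junb, and 17 were not called, with a median log2 fold change of 0.27, and 0.13 without the libraries that stood apart. Junb, at 250 ± 14.1 CPM in hM3Dq cells and 102 ± 6.38 CPM in EGFP cells (SD, n = 3 each), is also known to be induced by routes other than STAT3. Cebpb (log2 fold change 0.55, adjusted p = 0.252) and Timp1 (0.42, adjusted p = 0.615) came next. In rM3Ds and hM4Di cells none of the genes of the 4 lists was called against EGFP.

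At 3 days none of the genes of the 4 lists was called in edgeR on all 6 libraries. Of the 18 STAT3 targets 17 had a positive estimate, with a median log2 fold change of 0.39 against -0.01 for all genes tested. A positive estimate was also seen for 10 of 10 astrocyte markers, with a median of 0.15. In the other lists it was seen for 4 of 5 ligands and receptors, 6 of 11 relay genes and 4 of 12 inhibitors. Stat3 had a mean of 226 ± 20.2 CPM in hM3Dq cells and 173 ± 6.02 CPM in mCherry cells (SD, n = 3 each), a log2 fold change of 0.39 ± 0.10 (SE, adjusted p = 0.24 in edgeR). Bcl6, a transcriptional repressor, averaged 32.0 ± 1.57 CPM in hM3Dq cells and 23.3 ± 1.18 CPM in mCherry cells (SD, n = 3 each, adjusted p = 0.228 in edgeR). Lcn2, the lipocalin known from reactive astrocytes, was at a low level, 1.95 ± 0.543 CPM in hM3Dq cells and 0.743 ± 0.269 CPM in mCherry cells (SD, n = 3 each, adjusted p = 0.243 in edgeR). Without mCherry 3, 8 of the 18 targets were called higher (Bcl3, Bcl6, Cd44, Cebpd, Lcn2, Osmr, Stat3 and Lrg1) and none lower, 15 of 18 had a positive estimate with a median of 0.35, and 9.72% of all genes were called. In that fit 6717 of the 12929 genes tested had a positive estimate. Besides these targets, Il6ra was called higher and Tyk2 lower in the other lists. Osmr is both a member and in the list of STAT3 targets. Astrocyte markers summed to 826 to 862 CPM in hM3Dq cells, against 726 to 780 CPM in mCherry cells. Neuron markers summed to 119 to 124 CPM in hM3Dq cells, against 136 to 170 CPM in mCherry cells, and oligodendrocyte lineage markers to 115 to 116 CPM, against 90.9 to 108 CPM. None of these ranges overlapped, where 25.1% of genes did not overlap in either direction at 3 days. The ranges of microglia, fibroblast and mural, and endothelial markers did overlap. Most of the neuron sum was Map2, at 119, 123 and 121 CPM in hM3Dq cells, against 136, 136 and 170 CPM in mCherry cells. Most of the oligodendrocyte lineage sum was Cnp, at 87.7, 88.6 and 86.1 CPM, against 78.4, 76.9 and 61.8 CPM. The part of these markers in the result was not tested. Socs3 had 27.7, 27.6 and 34.4 CPM in hM3Dq cells at 3 days, against 27.2, 26.5 and 15.6 CPM in mCherry cells, and the low value was that of mCherry 3.

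The annotation limits 2 of the members. In GENCODE M21 Cntf overlaps Zfp91 on the same strand, and Clcf1 overlaps AC109138.7 on the same strand and the microRNA gene Gm26115 on the opposite strand, so reads of these genes may have been shared in the counting. Zfp91 had 244, 169 and 186 CPM in rM3Ds cells, 203, 247 and 224 CPM in hM4Di cells and 198, 275 and 292 CPM in EGFP cells. In each of these groups its lower values fell in the libraries with low Cntf, and its spread between libraries was far smaller than that of Cntf. In hM3Dq cells at 90 min Zfp91 had 250, 263 and 212 CPM, with Cntf at 38.4, 52.3 and 48.0 CPM, a different order. In mCherry cells at 3 days Zfp91 had 265, 286 and 340 CPM, with Cntf at 37.4, 36.0 and 26.9 CPM, so the highest Zfp91 went with the lowest Cntf. In hM3Dq cells at 3 days Zfp91 had 290, 286 and 283 CPM, with Cntf at 56.4, 59.1 and 52.3 CPM. Whether reads were shared was not tested.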

How the data were processed

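The authors deposited estimated counts per gene, not normalised, made from the reads of polyadenylated RNA, as 2 tables of the whole series, 12 libraries at 90 min and 6 at 3 days. Of the values 55.9% and 30.5% were not whole numbers, and all 18 columns were matched to samples by their labels. Salmon 1.8.0, fastp 0.23.4 and mm39 are named, without role or order, per the submitters' processing notes, and how transcripts were summed to genes or strand was used is not given in the sources used here. Entrez identifiers were matched to symbols for 21978 of 22078 genes (99.55%).

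Estimated counts were rounded to whole numbers. Each time was fitted with edgeR 4.0.16 (R 4.3.3) by its quasi-likelihood test, with TMM scaling, filterByExpr and robust dispersion, using the 12 libraries at 90 min (8 residual degrees of freedom) or the 6 at 3 days (4). The difference between times used hM3Dq and its control at each time in 1 fit. P-values were adjusted by Benjamini-Hochberg over all genes tested and called below 0.05. The code was tested on simulated counts. Depth sets a floor of 3 counts, 0.119 to 0.187 CPM, and covers counting error only. Levels per kilobase used exon lengths of GENCODE M21.

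Alternatives were DESeq2 1.42.0, RLE scaling, no filter, a replicate block, the 2 groups alone, and leaving out each library or those that stood apart. Replicate numbers met the criterion for pairing (every correlation of deviations over 0.1) for hM3Dq against EGFP, at 0.13, 0.16 and 0.12. The members and lists were chosen with earlier results of these data known. Named were all 9 members, pathway genes called or among the 3 smallest p of a list in hM3Dq cells at either time, and the 5 genes nearest to each called member. Other genes with values (Stat3 and Socs3 at 90 min, Zfp91, Flt1, Tek, Vwf, Map2, Cnp) were added after their values were seen. A gene of the lists is not reported here.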

Additional observations from a re-analysis of the deposited data

Results flagged for a closer look

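The response to hM3Dq differed between the times for both cytokines that rose at 90 min, by the test of the difference itself. For Clcf1 the hM3Dq effect at 3 days minus that at 90 min was -2.43 on the log2 scale, and for Lif it was -2.18. Both are given with their errors in the comparison of the times. The control plasmid changed with the time, so their parts cannot be told apart.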

How the results depend on the processing

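For hM3Dq against EGFP 2 members were called under every alternative other than leaving out 1 library, where the count was 1 to 2. Counts of called members changed elsewhere. Under DESeq2 they were 2 for hM3Dq against rM3Ds, 2 for hM3Dq against hM4Di, 1 for rM3Ds against hM4Di and 2 at 3 days, where 463, 424, 205 and 156 of all genes were called. With only the 2 groups compared, hM3Dq against rM3Ds gave 2, of 138 genes called. Without the libraries that stood apart they were 3 for hM3Dq against hM4Di, 4 for the difference between times and 3 at 3 days, where 2.16%, 3.72% and 9.72% of all genes were called, and rM3Ds then had 1 library, whose spread was taken from the other groups. Leaving out 1 library gave 1 to 2 for hM3Dq against hM4Di, 0 to 1 for rM3Ds against hM4Di, 2 to 4 for the difference between times and 0 to 3 at 3 days. The cause was not tested.

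Direction changed for some uncalled estimates, in log2 units. Without the libraries that stood apart, hM3Dq against EGFP gave Cntf -0.195, Il11 0.10, Osmr -0.167 and Il6st -0.124. There rM3Ds against EGFP gave Cntf 0.068, Osmr -0.097 and Il6st -0.133, hM4Di against EGFP gave Cntf -0.351, Il6 0.266 and Osmr -0.32, hM3Dq against rM3Ds gave Il6 1.571, 3 days gave Lifr 0.088 and Il6st 0.022, and the difference between times gave Il6st 0.142. Lifr in rM3Ds cells was 0.004 with DESeq2, 0.002 with RLE scaling, 0.005 with no filter, 0.01 with the replicate block and 0.006 with the 2 groups alone.

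Leaving out 1 library at a time gave, for hM3Dq against EGFP, Cntf -0.186 to 0.639, Il11 -0.296 to 0.109, Osmr -0.158 to 0.578, Lifr -0.246 to 0.175 and Il6st -0.116 to 0.157. For rM3Ds against EGFP it gave Il11 -0.397 to 0.015, Osmr -0.208 to 0.527, Lifr -0.198 to 0.222 and Il6st -0.132 to 0.139. For hM4Di against EGFP it gave Clcf1 -0.149 to 0.017, Cntf -0.321 to 0.612, Il6 -1.619 to 0.297, Osmr -0.292 to 0.444 and Il6st -0.332 to 0.095. Lif in rM3Ds against hM4Di was -0.006 to 0.641. At 3 days Il11 was -0.602 to 0.051, Lifr -0.16 to 0.088 and Il6st -0.095 to 0.022. For the difference between times it gave Il11 -0.478 to 0.204, Osmr -0.068 to 0.674, Lifr -0.183 to 0.235 and Il6st -0.202 to 0.065.

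With the replicate block, hM3Dq against EGFP gave Lif 1.655 (adjusted p = 0.0429 in edgeR) and Clcf1 1.82 (0.000364), and 66 genes in place of 107. The block changed no member's call in any comparison, and turned Osmr to -0.021 and Lifr to -0.01 in the difference between times. In the other comparisons at least 1 pair of same-numbered libraries had a correlation of 0.1 or less. The 107 genes called for hM3Dq against EGFP were 232 under DESeq2. The counts of list genes without the libraries that stood apart were added after seeing the data.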
